A study of Sus scrofa with 6 samples.

Results

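The SLC25 carriers are a family of transporters found mostly in the mitochondrial inner membrane, and their transcripts were examined here in porcine 2-cell embryos. Members were taken by name, as the rows of the deposited table whose gene name starts with SLC25A and a digit. This gave 37 of 17678 genes, of which 32 had a mean normalized value of at least 10 over the libraries and were tested. Mature oocytes at metaphase II from slaughterhouse ovaries of crossbred pigs had been injected with a non-specific siRNA (NC, negative control) or with a mix of siRNAs to different sites of SIN3A (KD, knockdown). All of them were then activated parthenogenetically, by electric pulses followed by cycloheximide and cytochalasin B, so the embryos of both groups had a maternal genome only. Embryos were harvested at 32 h after activation, and there were 3 replicates of 20 pooled embryos per group. The labels do not say whether same-numbered replicates share a batch of oocytes, so the tests measure the spread between these pools.

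SLC25 carriers are encoded in the nucleus and made in the cytosol, and most are inserted into the inner membrane by way of TOM70 and the TIM22 complex. A few members sit elsewhere, such as SLC25A46 in the outer membrane and SLC25A17 in peroxisomes. The carriers exchange ADP for ATP, and move phosphate, di- and tricarboxylates, amino acids, carnitine esters, cofactors, iron and glutathione between cytosol and matrix. In mammalian oocytes and cleaving embryos, ATP comes mainly from mitochondria that were inherited from the oocyte, and most transcripts at the 2-cell stage of the pig are also maternal. Family members share a fold built of 3 repeats, so their sequences were compared to see how much of each could be shared between members.

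The sequences of the ADP/ATP carriers are shown first, as the only group whose coding sequences were aligned with each other. RefSeq mRNAs of Sscrofa11.1, the build that the authors also used, were found for 36 of the 37 members, and SLC25A2 had none. The stretches below are 30 bases of coding sequence that encode the signature of the ADP/ATP carriers, 3 arginines followed by 3 methionines, which is in capitals.
SLC25A4: actgtcCGCCGTAGGATGATGATGcagtct
SLC25A5: actgtaCGTCGACGCATGATGATGcagtca
SLC25A6: accgtgCGGCGGCGGATGATGATGcagtcc
SLC25A31: acagttAGAAGACGCATGATGATGcagagt
The stretch of SLC25A4 lies at chr15:46196340-46196369 on the plus strand, and that of SLC25A5 at chrX:97921431-97921460 on the plus strand. The stretch of SLC25A6 lies on an unplaced scaffold from 793805 to 793834 on the minus strand. In SLC25A31, on the minus strand of chromosome 8, the stretch is split by an intron and lies between 97096422 and 97100318. The signature starts at codon 235 in SLC25A4, SLC25A5 and SLC25A6 and at codon 251 in SLC25A31. Between SLC25A4, SLC25A5 and SLC25A6 each pair differed at 6 of the 30 bases, and SLC25A31 differed from them at 8 to 10.

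Over the whole coding sequence, SLC25A5 was 78.7% identical to SLC25A6 and 76.8% identical to SLC25A4. SLC25A31 was 64.3% to 67.1% identical to the other ADP/ATP carriers. No stretch of 31 bases was shared between any 2 of these coding sequences. Across the 36 members with an mRNA, at most 3.4% of the 31-base words of the longest mRNA occurred in a transcript of another RefSeq gene. That value belonged to SLC25A15, and it was 0.0% for SLC25A5, SLC25A6, SLC25A4, SLC25A31 and SLC25A3. The transcript models that the authors counted on were not used here.

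All libraries carried the expression of eggs and early embryos. Of 10 oocyte markers, 8 were in the table by name, all with a mean of at least 10, and their summed value was 84477 to 93897 in NC and 81789 to 102018 in KD libraries. Of 12 cumulus and granulosa cell markers, 8 were in the table, none at 0 in all libraries, and their summed value was 37.1 to 39.9 in NC and 29.3 to 57.2 in KD libraries. INHBA and STAR made up most of it. Depth was estimated from the spacing of low values, on which 59.6% to 71.8% of them lay. It came to between 7800000 and 13000000 reads for NC and between 10200000 and 15700000 for KD. The knocked-down gene SIN3A was at 34576 ± 2534 in NC and 2841 ± 1591 in KD (SD, n = 3 each), a log2 difference of -3.81 (limma, adjusted p = 8.45e-06, and 0.423 without a variance trend). As values are scaled between libraries and spike-in mRNAs were not used here, a change in all messenger RNA per embryo cannot be told apart from no change.

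The members taken by name held a small share of the transcripts. Family genes that the deposited table leaves unnamed, such as SLC25A32 at an NC mean of 1071, are not included. Summed over the 37 members, the normalized value came to 15534, 15742 and 15891 in the NC libraries. The KD libraries gave 15820, 16220 and 15482. Here and below, values are listed in the order of replicates 1 to 3. The group means were 15722 ± 179 (SD, n = 3) and 15841 ± 369 (SD, n = 3), a KD to NC ratio of 1.01. This was 0.137% to 0.143% of the summed values in every library. The groups overlapped, and the ratio was 0.995 to 1.019 in the fits that lacked 1 library.

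A few members made up most of the family. SLC25A13, SLC25A44, SLC25A36 and SLC25A6 were the highest 4 in all 6 libraries and together held 58.5% or more of the summed value in each. To compare genes, NC means were divided by the length of the longest RefSeq mRNA in kb. On this scale the tested members ranged from 2.63 for SLC25A53 to 1077 for SLC25A6, with a median of 72.9, against a median of 60.1 over 9763 tested genes with a length. SLC25A6 stood at percentile 95.3 of these genes, SLC25A13 at 92.4 and SLC25A5 at 92.1. In the order of the 36 members by this level, 8 of 35 neighbouring pairs differed by more than the sum of their SDs. SLC25A6 was above SLC25A13 by this measure, and SLC25A5 above SLC25A44. SLC25A13 and SLC25A5 were not apart, nor were SLC25A44 and SLC25A33, or SLC25A33 and SLC25A36. Per kb of coding sequence SLC25A13 ranked 1 and SLC25A6 ranked 4, so the order at the top depends on the transcript model.

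**Figure D1:**
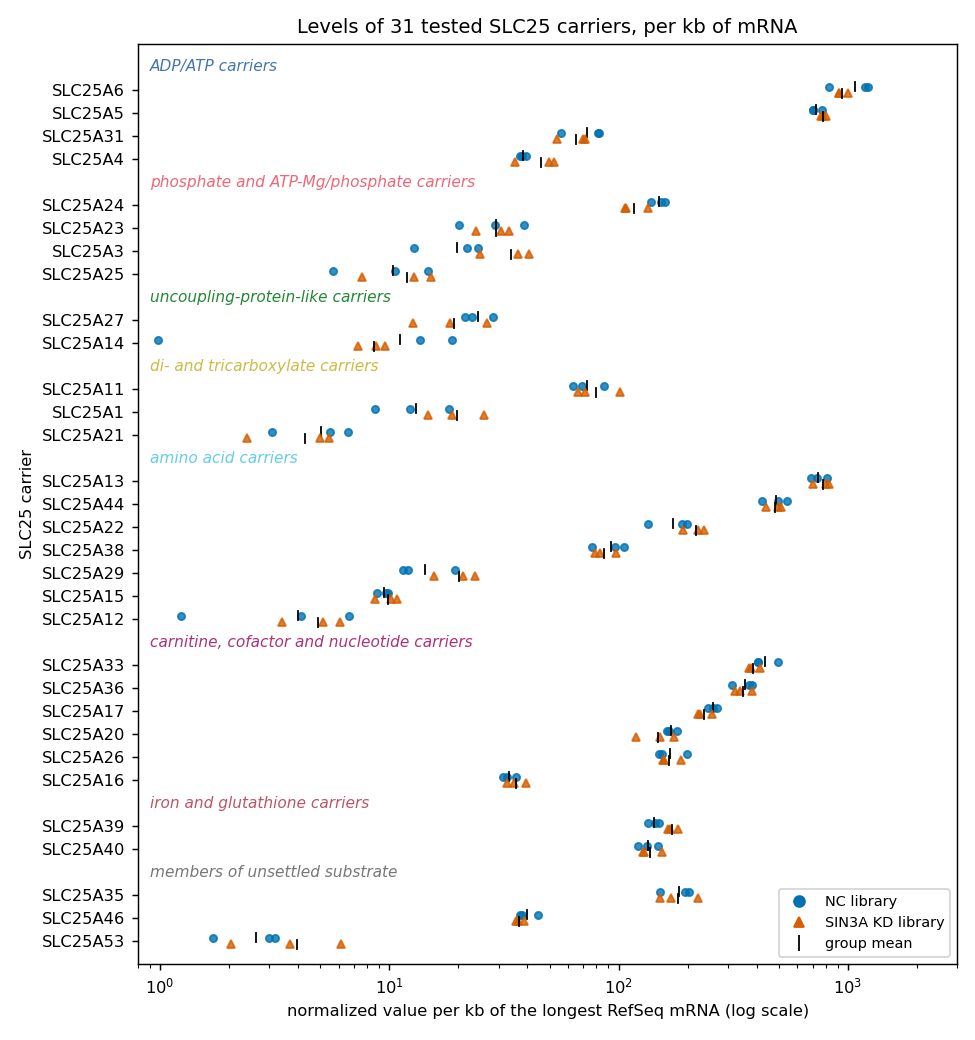
Normalized value per kb of the longest RefSeq mRNA (log axis) of 31 tested SLC25 carriers, grouped by substrate. Circles are NC and triangles KD libraries, and vertical bars are group means; SLC25A6 at 1077 per kb in NC and SLC25A53 at 2.63 mark the ends of the range, and the groups lie close together in most rows.

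Levels of the family were then compared between KD and NC embryos, the question being which transcripts follow the loss of SIN3A, a scaffold of histone deacetylase complexes. Of the 32 tested carriers, 0 had an adjusted p below 0.05 in limma, with every adjusted p at 0.997 or above. Over all 11986 tested genes, 19 passed, which is 0.159%, with 0.0584% higher and 0.1% lower in KD. None of the 4742 tested genes with means of 10 to 100 passed, so the count says little about the 11 carriers at that level. At an unadjusted p below 0.05 there were 4 carriers, SLC25A3, SLC25A29 and SLC25A22 with higher and SLC25A24 with lower values in KD, against 4.61% of all tested genes (2.24% higher and 2.38% lower). This number was 0 without KD replicate 1, 2 without NC replicate 2 or KD replicate 3, and 3 without any other library. The 3 KD values lay above all NC values in SLC25A3 and SLC25A39, where 4.85% of all tested genes did so, and below them in SLC25A24, where 4.94% did, together 9.79% of all tested genes. With 3 libraries against 3 an exact permutation test cannot give a two-sided p below 0.1, which these 3 carriers had.

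The fold changes were small and fell on both sides of 0. The log2 fold change was above 0 for 17 and below 0 for 15 of the tested carriers, with a median of 0.034, against 0.003 for all tested genes. The median size of the change was 0.17, against 0.12 over all tested genes. Among carriers with a mean of at least 100, 8 were above and 13 below 0, with a median of -0.024. All tested genes at that level had 3644 above and 3600 below 0, with a median of 0.001. Among carriers with means of 10 to 100, 9 were above and 2 below 0, with a median of 0.237. For all tested genes at that level it was 2420 above and 2322 below, with a median of 0.009. No carrier had an absolute log2 fold change above 0.8. The 95% interval lay within a 2-fold change either way for 24 of the 32, and within a 1.5-fold change for 19. Among the 21 carriers with a mean of at least 100, all 21 lay within 2-fold and 17 within 1.5-fold. Among the 11 carriers with means of 10 to 100, 3 lay within 2-fold, and the intervals of the other 8 reached beyond a 2-fold change.

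**Figure D2:**
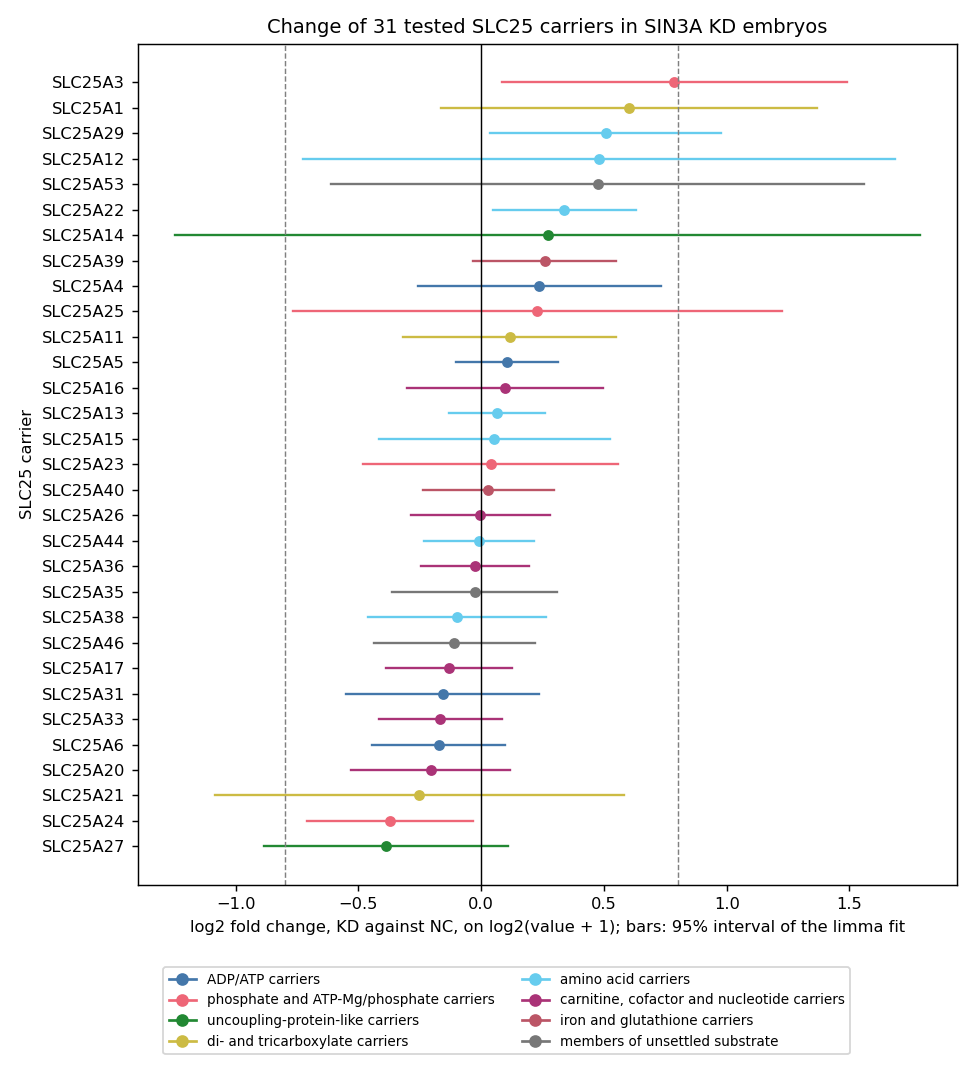
Log2 fold change of KD against NC on log2(value + 1) for 31 tested SLC25 carriers, with the 95% interval of the limma fit, coloured by substrate group. Dashed lines are log2 fold changes of 0.8 either way; every point lies between them, from -0.39 for SLC25A27 to 0.79 for SLC25A3.

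The ADP/ATP carriers, which export the ATP made in the matrix, comprised 4 members, and 0 passed the test. SLC25A6, the ubiquitous isoform, had values of 1127, 1604 and 1655 in NC and of 1364, 1236 and 1238 in KD replicates 1 to 3. NC replicate 1 was below every KD library and the other NC libraries were above every KD library, and the log2 fold change was -0.17 (standard error 0.13). Without NC replicate 1 it was -0.35, with an adjusted p of 0.482 in limma. SLC25A5, the isoform of growing cells, had values of 919, 914 and 1004 in NC and of 1040, 997 and 1011 in KD. Its log2 fold change was 0.10 (standard error 0.10), and the 95% interval of -0.10 to 0.31 was the second narrowest of the family.

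SLC25A31, the germ cell isoform, was lower, at 209, 212 and 144 in NC and 180, 185 and 139 in KD. SLC25A4, the isoform of heart and muscle, was the lowest of the group, at 60.9, 59.5 and 63.2 in NC and 79.9, 56.6 and 83.6 in KD. For both the groups overlapped, and the log2 fold changes were -0.16 (standard error 0.19) and 0.24 (standard error 0.24). Per kb of mRNA, SLC25A6 made up 55.9% ± 4.94 (SD, n = 3) of the ADP/ATP carrier transcripts of NC embryos and 51.4% ± 0.794 (SD, n = 3) of those of KD embryos, and SLC25A5 made up 38.2% ± 3.90 and 42.6% ± 0.945. SLC25A31 held 2.7% to 4.9% and SLC25A4 1.9% to 2.9% in the 6 libraries. The somatic pair SLC25A5 and SLC25A6 was thus above the germ cell isoform in every library.

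**Figure D3:**
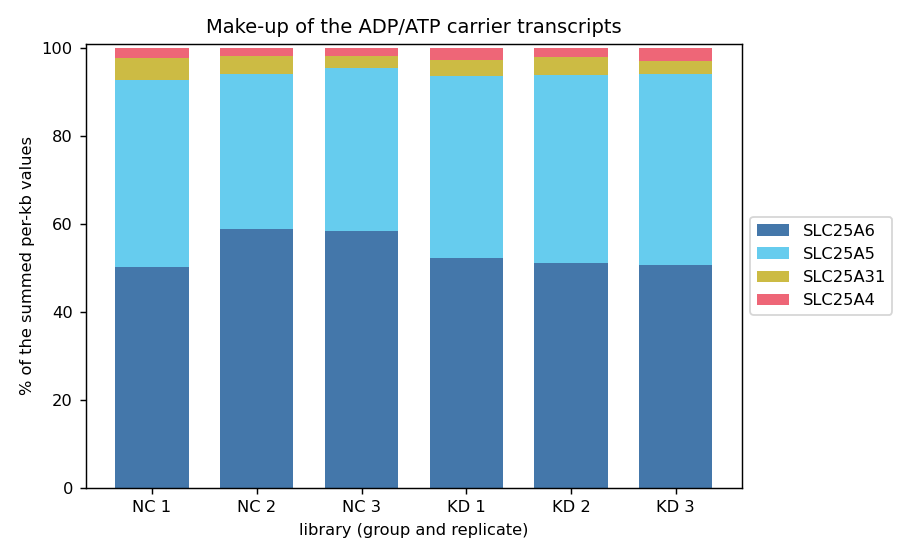
Share of each ADP/ATP carrier in the summed values per kb of mRNA, in percent, for each of the 6 libraries. SLC25A6 holds 50.2% to 59.0% and SLC25A5 35.1% to 43.3%; NC replicate 1 resembles the KD libraries more than NC replicates 2 and 3.

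Among the phosphate and ATP-Mg/phosphate carriers, 4 members were tested and 0 passed. SLC25A3 imports the phosphate for ATP synthesis. Its values were 30.4, 33.9 and 17.9 in NC and 56.6, 34.7 and 50.6 in KD, so all KD values were above all NC values, with KD replicate 2 close to NC replicate 2. The log2 fold change of 0.79 (standard error 0.33, 95% interval 0.08 to 1.49) was the highest of the tested carriers, at an unadjusted p of 0.0306 and an adjusted p of 0.997 in limma. It was 0.52 without NC replicate 3 and 0.99 without KD replicate 2, the ends of its range over fits that lacked 1 library. The level of SLC25A3 was below those of the ADP/ATP carriers, at 19.7 ± 6.06 per kb in NC (SD, n = 3). Those were at 38.2 for SLC25A4, 73.0 for SLC25A31, 726 for SLC25A5 and 1077 ± 214 for SLC25A6. The only RefSeq mRNA of SLC25A3, on chromosome 5 from 85284405 to 85292336, shared no 31-base word with another gene.

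SLC25A24, a calcium-dependent carrier that exchanges ATP-Mg for phosphate, had values of 198, 229 and 220 in NC and of 153, 154 and 193 in KD. Every KD value was below every NC value. The log2 fold change was -0.37 (standard error 0.16, 95% interval -0.71 to -0.035), at an unadjusted p of 0.0325 and an adjusted p of 0.997 in limma. Its relative SLC25A23 had overlapping groups, at 60.6, 87.0 and 117 in NC and 72.1, 92.7 and 99.8 in KD, and a log2 fold change of 0.04 (standard error 0.25). SLC25A25, the lowest of these, ranged from 8.55 to 22.9 over the 6 libraries. In this group SLC25A3 and SLC25A24, the 2 members whose groups did not overlap, had log2 fold changes of opposite sign.

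The uncoupling-protein-like carriers had 2 tested members, and 0 passed. SLC25A27 (UCP4), best known from brain, had values of 128, 169 and 137 in NC and 75.4, 159 and 109 in KD. The groups overlapped through KD replicate 2, and the log2 fold change was -0.39 (standard error 0.24), or -0.12 without KD replicate 1 and -0.65 without KD replicate 2. SLC25A14 (UCP5) had values of 32.6, 23.6 and 1.71 in NC and of 16.7, 15.3 and 12.7 in KD. The NC libraries spanned a wider range than the KD libraries, and the mean was lower in KD while the log2 fold change was 0.27 (standard error 0.72). It was -0.87 without NC replicate 3 and -0.045 with a pseudocount of 10, so the sign rested on the low value of this library and on the pseudocount.

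The di- and tricarboxylate carriers link the citric acid cycle to the cytosol, and 0 of 3 tested members passed. SLC25A11, which exchanges oxoglutarate for malate, had values of 102, 139 and 112 in NC and of 107, 115 and 163 in KD, a log2 fold change of 0.12 (standard error 0.21). SLC25A1, the citrate carrier, had values of 23.0, 16.1 and 34.0 in NC and of 35.1, 27.4 and 48.1 in KD. The groups overlapped, and the log2 fold change of 0.60 (standard error 0.36, 95% interval -0.16 to 1.37) was the second highest in the family, and it was 0.35 without NC replicate 2. SLC25A21, an oxodicarboxylate carrier, had values of 41.8, 34.8 and 19.6 in NC and 31.5, 15.2 and 34.5 in KD. Its groups overlapped over most of their range, at a log2 fold change of -0.25 (standard error 0.39).

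**Figure D4:**
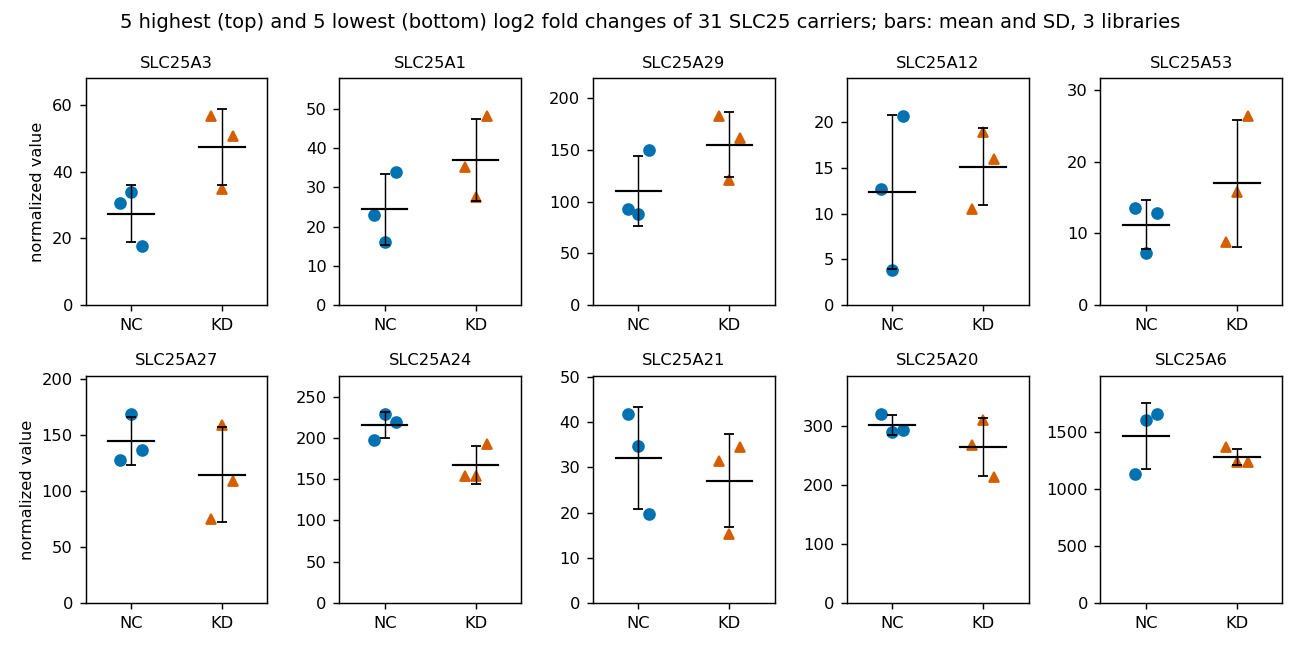
Normalized values of the carriers with the 5 highest (upper row) and 5 lowest (lower row) log2 fold changes of 31 SLC25 carriers, in 3 NC libraries (circles) and 3 KD libraries (triangles), with mean and SD. KD and NC values are apart in SLC25A3 and SLC25A24 and overlap in the other 8.

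The amino acid carriers held SLC25A13, the member with the highest normalized value before division by length, and 0 of 7 tested members passed. SLC25A13 (citrin), the aspartate/glutamate carrier of the malate-aspartate shuttle, had values of 4732, 4287 and 4058 in NC and of 4723, 4845 and 4115 in KD. The groups covered nearly the same range, and the log2 fold change was 0.06 (standard error 0.09, 95% interval -0.13 to 0.26). Its paralog SLC25A12 (aralar), which does the same exchange, was near the lower limit of the test, at 12.7, 3.82 and 20.6 in NC and 10.5, 18.8 and 15.9 in KD. Per kb of mRNA, SLC25A13 stood at 743 ± 58.4 and SLC25A12 at 3.99 ± 2.71 in NC embryos (SD, n = 3 each). The log2 fold change of SLC25A12, 0.48 (standard error 0.57), rested on NC replicate 2 and was -0.13 without it.

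SLC25A44, a carrier of branched-chain amino acids, had values of 1569, 1845 and 2013 in NC and of 1636, 1892 and 1846 in KD, and a log2 fold change of -0.01 (standard error 0.11). SLC25A22, which takes up glutamate, had the lowest unadjusted p of the family and is named here for that reason, outside the naming rule. Its values were 602, 891 and 845 in NC and 1060, 1002 and 862 in KD. KD replicate 3 lay among the NC libraries and the other KD libraries above them. The log2 fold change was 0.34 (standard error 0.14, 95% interval 0.05 to 0.63), at an unadjusted p of 0.0259 and an adjusted p of 0.997 in limma. Without NC replicate 1, the lowest NC library, it was 0.16.

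SLC25A29, a carrier of basic amino acids, had values of 93.2, 88.6 and 150 in NC and 183, 121 and 162 in KD. NC replicate 3 was above KD replicate 2, and the log2 fold change was 0.51 (standard error 0.22, 95% interval 0.04 to 0.98), at an unadjusted p of 0.0362 and an adjusted p of 0.997 in limma. SLC25A38, which imports glycine for heme synthesis, ranged from 152 to 210 over the 6 libraries, and SLC25A15, the ornithine/citrulline carrier, from 60.3 to 75.5. Their log2 fold changes were -0.10 (standard error 0.17) and 0.05 (standard error 0.22).

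Of the carnitine, cofactor and nucleotide carriers, 0 of 7 tested members passed. The log2 fold change was below 0 for 6 of the 7, against 5922 of all 11986 tested genes, with a median of -0.13 for the 7. SLC25A36 and SLC25A33, both carriers of pyrimidine nucleotides, were the highest. SLC25A36 had values of 1849, 1520 and 1807 in NC and of 1651, 1571 and 1863 in KD, a log2 fold change of -0.02 (standard error 0.10). SLC25A33 had values of 623, 758 and 619 in NC and of 576, 636 and 565 in KD, a log2 fold change of -0.17 (standard error 0.12). In both genes the groups overlapped.

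SLC25A20, which carries acylcarnitines to fatty acid oxidation, had values of 320, 289 and 293 in NC and 268, 309 and 212 in KD. KD replicate 2 lay among the NC libraries, and the log2 fold change was -0.21 (standard error 0.15). Other members were SLC25A26 (S-adenosylmethionine), SLC25A17 (a peroxisomal cofactor carrier) and SLC25A16 (coenzyme A), with NC means of 508, 452 and 100.3 and log2 fold changes of -0.004, -0.13 and 0.10.

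The glutathione carriers SLC25A39 and SLC25A40 were both tested, and 0 passed. SLC25A39 had values of 215, 230 and 239 in NC and of 263, 289 and 266 in KD, so that every KD value was above every NC value. Its log2 fold change was 0.26 (standard error 0.14, 95% interval -0.034 to 0.55), at an unadjusted p of 0.0797 and an adjusted p of 0.997 in limma. The paralog SLC25A40 had values of 541, 443 and 481 in NC and 466, 468 and 563 in KD, at a log2 fold change of 0.03 (standard error 0.13). Per kb of mRNA both stood near each other in NC, at 143 ± 7.84 and 134 ± 13.6 (SD, n = 3 each), but per kb of coding sequence they were at 211 and 480. The iron carrier SLC25A28 (mitoferrin-2) was at 4.17, 2.92 and 1.71 in NC and 11.7, 2.87 and 5.49 in KD and was not tested.

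Among members whose substrate is not settled, 0 of 3 tested passed. SLC25A35 had values of 382, 398 and 296 in NC and of 330, 434 and 297 in KD, a log2 fold change of -0.03 (standard error 0.16). SLC25A46, an outer membrane member tied to mitochondrial fission, had values of 215, 180 and 182 in NC and 175, 186 and 171 in KD, a log2 fold change of -0.11 (standard error 0.16). SLC25A53 had values of 13.6, 7.31 and 12.8 in NC and 8.76, 15.8 and 26.3 in KD, a log2 fold change of 0.47 (standard error 0.51) that was 0.11 without KD replicate 3 and 0.85 without KD replicate 1. In each of the 3 genes the groups overlapped.

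Next to SLC25A28, the members not tested were SLC25A2, SLC25A43, SLC25A45 and SLC25A47. SLC25A2, an ornithine carrier, had values of 9.45, 5.90 and 5.87 in NC and 5.86, 2.91 and 4.34 in KD. Every KD value was below every NC value, but NC replicate 3 and KD replicate 1 differed by less than a read. SLC25A43 lay between 0 and 6.82. SLC25A45 and SLC25A47 were at 0 in 3 and 4 of the 6 libraries, and their highest values were 4.32 and 2.21. These values stand for a few reads per library, and no fold is given.

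Members near each other in the genome could differ in level. SLC25A43 and SLC25A5 both lie on the plus strand of chromosome X, from 97868804 to 97906771 and from 97919295 to 97922245. They had NC means of 1.23 and 726 per kb of mRNA. SLC25A29 and SLC25A47 lie on opposite strands of chromosome 7, from 121178211 to 121192369 and from 121204213 to 121210376, with NC means of 14.3 and 0.176 per kb of mRNA.

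**Figure D5:**
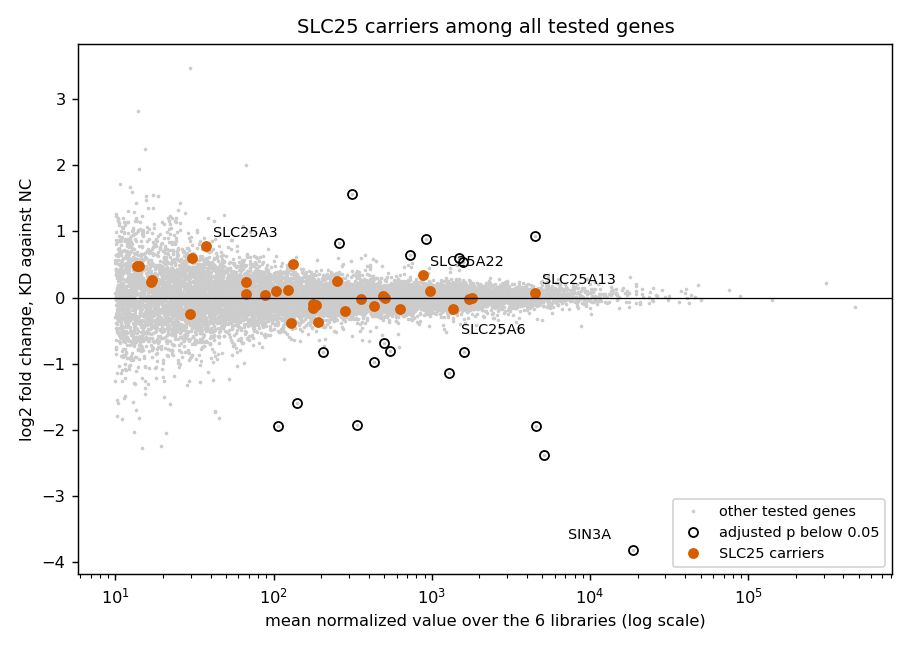
Log2 fold change of KD against NC over the mean normalized value (log axis) for the 11986 tested genes. The 31 SLC25 carriers shown (filled circles) lie within the cloud of other genes, and none is among the 19 genes with an adjusted p below 0.05 (open circles), of which SIN3A is the lowest at -3.81.

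The genes that act beside the carriers were counted in the same way, next to the 0.159% of all tested genes that passed. At that share, lists this short would mostly hold 0 calls. Of 21 other mitochondrial transporters and channels in the table, 15 were tested and 0 passed, and their median log2 fold change was 0.031. LETM1, a cation exchanger, had the highest mean of these, at 1360 ± 153 in NC and 1478 ± 171 in KD (SD, n = 3 each), and a log2 fold change of 0.12 (standard error 0.11). MCU, the pore of the calcium uniporter, was at 1123 ± 70.1 in NC and 1282 ± 105 in KD, with every KD value above every NC value. Its log2 fold change of 0.19 (standard error 0.10) was the highest of the list. UCP2, an uncoupling protein of the SLC25 family under another name, had the lowest, -0.35 (standard error 0.62), at 14.0 ± 9.66 in NC and 9.16 ± 3.37 in KD.

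Of 11 genes for the import of carriers through TOM70 and TIM22, 9 were tested and 0 passed, again beside 0.159% of all tested genes. The median log2 fold change of the list was -0.051. TOMM70, the receptor for carrier precursors, was at 1456 ± 34.7 in NC and 1402 ± 122 in KD, and AGK, a kinase and TIM22 subunit, at 1118 ± 70.8 and 1071 ± 77.6 (SD, n = 3 each). TIMM22, the insertion channel, had the highest log2 fold change of the list, 0.09 (standard error 0.21), and TOMM20 the lowest, -0.12 (standard error 0.22). All 9 intervals lay within a 2-fold change.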

How the data were processed

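Messenger RNA was sequenced from 3 NC and 3 KD replicates of 20 porcine 2-cell embryos at 32 h after activation. The authors assigned reads to Sscrofa11.1 transcripts with Salmon (version 0.14.1 per the submitters' processing notes) and used DESeq2 for the group comparison. What the authors deposited is a single normalized signal for each of 17678 Ensembl genes in each library, with no gene name for 3575. The values were not whole, so whole reads were not recovered and limma was used. The lower a value, the fewer reads stand behind it.

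Groups and replicate numbers came from the sample titles. Genes with a mean of at least 10 were tested on log2(value + 1) with limma 3.58.1 in R 4.3.3 (lmFit, eBayes with a variance trend, no block, Benjamini-Hochberg adjustment over all tested genes), which understates changes of low genes. Calls were made at an adjusted p below 0.05. An exact two-sided permutation test was run on each member (scipy 1.17.1). In a simulation of this comparison with 11973 tested genes, 82.0% of genes changed 2-fold and 98 of 98 changed 4-fold were called, with 13 unchanged genes. The simulation gave every gene the same dispersion and was not split by level, so its shares are not rates for low carriers. In the data, 132 of the 4742 tested genes with means of 10 to 100 had an absolute log2 fold change above 1, and 0 were called.

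Members, substrate groups and the other mitochondrial lists were chosen with earlier results of these data known. Named with single values were the 2 highest members of each substrate group, the 5 highest and 5 lowest log2 fold changes, the ADP/ATP carriers and any called member, except 1 member that is counted but not reported here by itself. SLC25A22, SLC25A28 and SLC25A2 were added after their values were seen. In the other lists, the 2 highest genes and the ends of the fold changes were named. Lengths, coding sequences and positions came from RefSeq (Sscrofa11.1), read with pysam 0.24.0 and Biopython 1.88, and figures were drawn with matplotlib 3.10.9. Of the 37 members, 35 had the same symbol for their identifier in a separate gene name table. Spike-in mRNAs, immunofluorescence and qPCR were not analysed here.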

Additional observations from a re-analysis of the deposited data

How the results depend on the processing

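None of the SLC25 carriers was called under any alternative run, namely 2 other pseudocounts (0.1, 10), 2 other filters (none, means from 100 up), TMM or quantile scaling, 2 other variance models, the replicate block and each fit that lacked 1 library. The lowest adjusted p of any carrier was 0.482, for SLC25A6 without NC replicate 1. The median log2 fold change of the carriers, 0.034, lay between -0.024 at a mean of at least 100 and 0.054 without a filter. The other 2 lists had 0 calls throughout. Over all tested genes, 19 were called, 26 with the replicate block, 0 without the variance trend (622 at an unadjusted p below 0.05) and 11 to 19 in fits that lacked 1 library, with 11 without KD replicate 2 and 12 without NC replicate 2 or 3. SIN3A kept its direction, but its adjusted p was 0.423 without the variance trend and 0.469 with a robust variance. The cause was not tested.

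Same-numbered NC and KD libraries had correlations of deviations from their group means of 0.087 to 0.111, against -0.083 to -0.021 for the 6 other pairs of an NC and a KD library. Each NC library thus correlated best with the KD library of its number. The main fit had no block, since the authors describe none for their comparison, and it ignores any such pairing. With the replicate block 0 carriers were called, and the lowest adjusted p was 0.68.

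Besides SIN3A, 33 genes were followed through the alternatives, among them the member not reported here by itself. Their 484 comparisons with an alternative gave 461 with the same direction and no call, and 23 of the opposite sign. In fits that lacked 1 library, log2 fold changes spanned the range from -0.866 to 0.951 for SLC25A14, from -0.11 to 0.071 for SLC25A44, from -0.13 to 0.95 for SLC25A12, from -0.11 to 0.029 for SLC25A36, from -0.067 to 0.24 for SLC25A11, from -0.56 to 0.10 for SLC25A21, from -0.061 to 0.11 for SLC25A40, from -0.18 to 0.089 for SLC25A35, from -0.20 to 0.26 for SLC25A23, from -0.98 to 0.14 for UCP2, from -0.099 to 0.017 for TOMM70 and from -0.12 to 0.24 for TIMM22. With a pseudocount of 10, that of SLC25A14 was -0.045.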

Other observations

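Some genes of the family stand in the deposited table without a name or under another one. By their Ensembl identifiers in a separate gene name table, 3 unnamed genes are SLC25A32, SLC25A10 and SLC25A48. SLC25A32, a carrier of folate and FAD, had values of 1157, 1102 and 955 in NC and of 962, 944 and 913 in KD, so that NC replicate 3 alone lay among the KD libraries. SLC25A10, the dicarboxylate carrier, had values of 109, 124 and 118 in NC and of 177, 115 and 95.3 in KD, with KD values on both sides of the NC values. SLC25A48 lay between 6.16 and 10.7. These genes were not among the 37 members. A further identifier, listed as SLC25A42 there, has the name ARMC6 in the deposited table, so no value is given for SLC25A42.

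How evenly paralogs with the same substrate shared their transcripts depended in part on the length used. In NC embryos SLC25A13 was at 743 and SLC25A12 at 3.99 per kb of mRNA, SLC25A33 and SLC25A36 at 435 and 355, and SLC25A39 and SLC25A40 at 143 and 134. Among the ATP-Mg/phosphate carriers SLC25A24 was at 150.2, SLC25A23 at 29.3 and SLC25A25 at 10.3. Per kb of coding sequence, SLC25A33 and SLC25A36 were at 690 and 1844, and SLC25A39 and SLC25A40 at 211 and 480. Both pairs were thus less even on that scale, and in the opposite order. SLC25A13 and SLC25A12 stayed far apart, at 2073 and 6.09. These orders were not tested between genes, since they rest on the transcript lengths used.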
